A study of Mus musculus with 14 samples.

Results

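The regions described here are the H3K4me3 peaks of control cells that also lay on an H3K9me3 peak, called dual-marked regions below. They were chosen from the deposited peak lists of the control cells as every H3K4me3 peak that shared at least 1 bp with an H3K9me3 peak and no base with an H3K27me3 peak. The rule found 194 regions among 14595 H3K4me3 peaks, or 1.33%. Of the other H3K4me3 peaks, 13785 overlapped neither mark (called H3K4me3 alone below), 598 overlapped H3K27me3 and not H3K9me3, and 18 overlapped both. The choice used the 3 peak lists of the control cells, so the number, width and overlap of the regions are a description. The lists of the miR-93-5p cells and the RNA-seq libraries were not used in the choice.

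H3K4me3, trimethylation of lysine 4 of histone H3, marks active and poised promoters. H3K9me3, trimethylation of lysine 9, is laid down by enzymes such as Setdb1 and read by HP1 proteins, and marks silenced repeats, zinc finger gene clusters and the silenced copy of imprinted control regions. Imprinted genes are expressed from the copy of a single parent, so that an active and a silenced copy of one promoter sit in the same cell, and a ChIP-seq library, which mixes both copies and many cells, then shows both marks at one place. Whether the marks of a dual-marked region sat on the same nucleosome, on different copies or in different cells cannot be told apart in these data.

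The cells belonged to 1 mouse line, LEPC in the labels, of strain C57BL/6 at 3 passages, in a study of liver cancer. Control cells had the genotype scr, the second group overexpressed miR-93-5p, and the third, used for RNA alone here, overexpressed a mutant of miR-93-5p. Of the series' 14 samples, 6 peak lists (3 marks in scr and in miR-93-5p cells) and 3 RNA-seq libraries (scr, miR-93-5p, mutant) were analysed, with 1 library for each assay and condition. There was no replicate, so no test and no p-value was possible, and each difference is one between libraries. The labels do not say how the microRNA was expressed, nor whether each group was a clone.

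miR-93-5p is the microRNA that separates the groups, and its mature form is shown from RefSeq with the seed, bases 2 to 8, in capitals.
miR-93-5p: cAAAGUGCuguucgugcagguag
For 5 genes at dual-marked regions, chosen to show an imprinted pair, a zinc finger gene and a pair whose H3K4me3 peak was missing in miR-93-5p cells, the 250 bases before the RefSeq start (GRCm38.p6) are shown 5′ to 3′ on the gene's strand, with every CG pair in capitals.
Peg3: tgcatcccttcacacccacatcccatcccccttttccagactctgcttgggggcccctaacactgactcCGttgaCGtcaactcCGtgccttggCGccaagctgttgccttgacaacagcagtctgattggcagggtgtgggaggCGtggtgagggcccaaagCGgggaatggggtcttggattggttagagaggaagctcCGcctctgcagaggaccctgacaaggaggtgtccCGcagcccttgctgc
Zrsr1: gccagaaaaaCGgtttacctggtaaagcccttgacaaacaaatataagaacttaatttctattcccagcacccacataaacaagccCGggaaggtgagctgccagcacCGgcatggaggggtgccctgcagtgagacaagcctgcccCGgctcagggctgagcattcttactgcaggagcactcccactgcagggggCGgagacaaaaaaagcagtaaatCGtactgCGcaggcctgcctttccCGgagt
Zfp146: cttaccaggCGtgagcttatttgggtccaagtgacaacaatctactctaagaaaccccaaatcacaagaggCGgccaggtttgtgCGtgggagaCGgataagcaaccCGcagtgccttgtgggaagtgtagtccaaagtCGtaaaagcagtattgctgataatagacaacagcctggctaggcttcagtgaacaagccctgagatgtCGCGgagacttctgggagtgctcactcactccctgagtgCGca
Tspan13: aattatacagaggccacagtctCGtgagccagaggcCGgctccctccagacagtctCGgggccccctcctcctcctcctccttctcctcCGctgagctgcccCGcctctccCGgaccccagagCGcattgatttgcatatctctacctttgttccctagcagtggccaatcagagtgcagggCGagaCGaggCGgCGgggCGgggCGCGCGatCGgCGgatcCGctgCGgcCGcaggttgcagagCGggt
Klf2: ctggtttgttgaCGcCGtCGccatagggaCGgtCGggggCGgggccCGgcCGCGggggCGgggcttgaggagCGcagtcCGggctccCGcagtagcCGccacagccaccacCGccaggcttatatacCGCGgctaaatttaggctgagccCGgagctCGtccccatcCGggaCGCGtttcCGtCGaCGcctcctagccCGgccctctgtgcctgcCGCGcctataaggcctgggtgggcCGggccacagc
These stretches held 8 CG pairs before Peg3, 8 before Zrsr1, 9 before Zfp146, 21 before Tspan13 and 29 before Klf2. Among these 5 chosen examples, the pair without H3K4me3 in miR-93-5p cells was richer in CG than the others. Sequences were matched by symbol, and whether each printed base lay under a peak was not tested, since the peaks are on mm9. Of 179 symbols at dual-marked regions, 125 had at least 1 promoter in the table.
In promoters of 300 bases (250 before and 50 after the start), the median number of CG pairs was 20 over the 194 promoters of these genes, 21 over those of genes with H3K4me3 alone and 7 over all 32851 promoters. Over the 19 promoters of genes without H3K4me3 in miR-93-5p cells it was 26, a smaller gap than among the printed examples. The median GC content of the 194 promoters was 61.0%, equal to that of genes with H3K4me3 alone and above the 52.7% of all promoters. The letters TGCCGC, the core of the motif bound by ZFP57 (a zinc finger protein that keeps H3K9me3 at imprinted control regions when the motif is methylated), were searched on both strands and counted without regard to overlap with other motifs. They stood in 16.5% of the promoters of genes at dual-marked regions, 19.4% of those with H3K4me3 alone and 11.6% of all promoters of this length, and in 1 of 11 promoters of imprinted genes at dual-marked regions.

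The peak lists differed in extent. In scr cells the lists held 14595 H3K4me3, 15888 H3K9me3 and 44412 H3K27me3 peaks, covering 36.9, 21.6 and 60.0 Mb. In miR-93-5p cells they held 16173, 25879 and 43501 peaks, covering 40.0, 39.2 and 23.7 Mb. The depth of the ChIP libraries is unknown, and the part of depth and list size in the differences below was not tested. Each peak carried the caller's score, which began at 50 and was capped near 3100, and scores were read within a list alone. In RNA-seq the epithelial keratin genes Krt8 and Krt18 had 658 and 306 FPKM in scr cells, 230 and 200 FPKM in miR-93-5p cells, and 283 and 253 FPKM in mutant cells. Krt19 had no match in scr cells and 418 and 522 FPKM in the others, and Epcam had 0.840 FPKM in scr cells alone. Of the mesenchymal genes, Vim had 1061, 711 and 784 FPKM in scr, miR-93-5p and mutant cells, Fn1 had 23.6, 41.7 and 4.17 FPKM, and Col1a1 and Col1a2 had no match. FPKM counts mapped fragments per length of transcript, scaled to the size of the library. No locus matched the endothelial genes Pecam1, Cdh5 and Kdr or the leukocyte gene Ptprc in any library, while the leukocyte gene Csf1r had 7.63, 1.16 and 1.82 FPKM. Of the hepatocyte genes, Hnf4a had 40.6, 7.22 and 27.4 FPKM and Cebpa had 15.3, 5.17 and 3.00 FPKM. Alb had 1.30 FPKM in scr and 1.08 FPKM in mutant cells, Ttr had 0.969 and 2.04 FPKM there, and Apoa1 matched no locus. Of the biliary and progenitor genes, Spp1 had 531, 1076 and 1077 FPKM and Sox9 had 8.22, 11.1 and 6.91 FPKM, while Afp and Prom1 matched no locus.

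Dual-marked H3K4me3 peaks had a median width of 2372 bp, against 2413 bp for H3K4me3 alone, and ranged from 582 to 11273 bp. Their median score was 2292, and 43.3% reached the cap, against 61.9% of peaks with H3K4me3 alone. The medians of width lay within 100 bp of each other, and fewer dual-marked peaks were at the cap. In most regions the marks met at an edge. H3K4me3 and H3K9me3 overlapped at an edge in 140 regions, the H3K9me3 peaks lay within the H3K4me3 peak in 30, and the H3K4me3 peak lay wholly within H3K9me3 in 24. The median overlap was 819 bp. H3K9me3 covered less than 10% of the H3K4me3 peak in 42 regions, 10 to 50% in 73, 50 to 90% in 47 and at least 90% in 32.

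The overlap rule had a thin margin for some regions. The shortest overlaps were 4 bp at Tiam2, 7 bp at Selenoi, 9 bp at Tmbim4 and 10 bp at Miga2, and 23 regions shared less than 100 bp. Just outside, the gap to H3K9me3 was 13 bp at Zfp942, 15 bp at Pias2 and 17 bp at Rnf168, and 22 peaks with H3K4me3 alone lay within 100 bp of H3K9me3.

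Of the 194 regions, 162 overlapped a gene locus and 32 overlapped none. Within 1 kb of a gene end lay 144 regions (74.2%), against 66.4% of peaks with H3K4me3 alone. The regions were on 188 gene loci, of which 179 had a symbol and 152 were protein-coding. Loci carried no strand, so a gene end could be a start or an end. The 20 chromosomes with regions (1 to 19 and X) held at least 2 each, from 0.426% of the H3K4me3 peaks of chromosome 14 to 2.37% of those of chromosome 15.

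Imprinted genes stood at 7 of the regions. From a list of 58 imprinted genes, 26 had an H3K4me3 peak, 31 an H3K9me3 peak and 16 both somewhere on the locus. 8 genes lay on a dual-marked region, which is 4.26% of all 188 genes there, where imprinted genes were 0.213% of all genes with an H3K4me3 peak. The 8 were Peg3, Zrsr1, Igf2r, Airn, Gnas, Nespas, Grb10 and Blcap. All 7 regions of the listed genes overlapped both marks again in miR-93-5p cells. The list was fixed with earlier results of these data known.

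At Peg3, a paternally expressed zinc finger gene, the scr H3K4me3 peak spanned chr7:6679494-6685490 (mm9), over one end of the gene locus, and a 3364 bp H3K9me3 peak lay wholly inside it. In miR-93-5p cells the same place held H3K4me3 peaks of 1714 and 4036 bp and an H3K9me3 peak of 4144 bp. At Zrsr1, a retrogene with a U2AF-related product that lies within an intron of Commd1, the H3K4me3 peak chr11:22871481-22876596 shared 3376 bp with H3K9me3. In miR-93-5p cells an H3K9me3 peak of 9436 bp covered all 5116 bp of it. Both loci therefore kept the 2 marks, with the H3K9me3 peak longer in the miR-93-5p list.
Igf2r, the receptor that clears insulin-like growth factor 2, and Airn, the antisense transcript that silences it on the paternal copy, shared a pair of regions. Both lay entirely under H3K9me3. The first, chr17:12933590-12936491 over one end of the Airn locus, had a score of 950 for the H3K9me3 peak. The second, chr17:12960539-12962991 over one end of the Igf2r locus, had 376. The miR-93-5p H3K9me3 peaks there were 7021 and 6728 bp wide, and 7499 and 6761 bp in scr cells. At the Gnas cluster, chr2:174118689-174122208 lay on Gnas and on its antisense gene Nespas and shared 2465 bp with an H3K9me3 peak of score 1425. At Grb10, a growth inhibitor that binds insulin receptors, chr11:11935329-11938136 shared 2380 bp with H3K9me3. Blcap, the host gene of the imprinted Nnat, qualified by a 96 bp edge: an H3K9me3 peak of 10579 bp and score 1805, the highest among the 194 regions, ended in the H3K4me3 peak chr2:157390313-157393840, and Nnat itself had H3K9me3 without H3K4me3. Imprinted genes with H3K9me3 and no H3K4me3 peak also included Mest, Plagl1, Peg10 and Nap1l5.

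**Figure D1:**
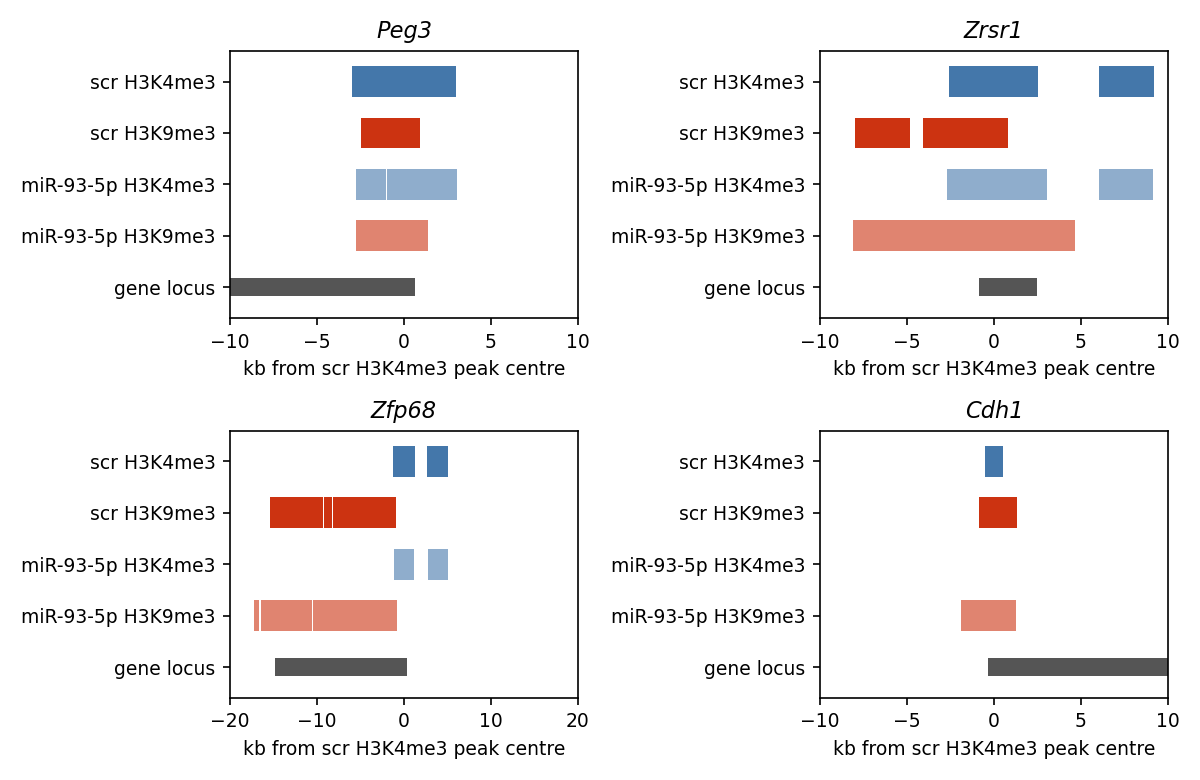
Peaks of H3K4me3 (blue) and H3K9me3 (red) in scr cells (dark) and miR-93-5p cells (pale) around the centre of the scr H3K4me3 peak at Peg3, Zrsr1, Zfp68 and Cdh1, with the gene locus in grey and distance in kb. Both marks appear in both conditions at the first 3 loci, and Cdh1 has no H3K4me3 peak in miR-93-5p cells.

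A region that did not keep H3K4me3 lay at chr7:67148172-67150381, near the small nucleolar RNA genes Snord64 and Snord107 of the imprinted Snrpn domain, on a locus whose identifier is now named Gm38393. That locus was not on the list of 58, so this region is not among the 7 above, and whether it is part of the Snrpn gene was not settled. Its score was 2233, it lay entirely under H3K9me3, and in miR-93-5p cells the nearest H3K4me3 peak was 237676 bp away while H3K9me3 remained. Of all dual-marked regions without an H3K4me3 peak in miR-93-5p cells, it had the highest H3K4me3 score.

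Zinc finger genes are a family of DNA-binding repressors, many of which recruit H3K9me3 and carry it over the 3′ exons of their own genes. Of 416 zinc finger genes by symbol, 311 had an H3K4me3 peak and 123 an H3K9me3 peak, or 29.6% with H3K9me3 against 15.4% of all coding genes. In 88 both marks were on the locus, but only 8 had them on a shared region. These were Zfp110, Zfp146, Zfp263, Zfp280d, Zfp53, Zfp623, Zfp68 and Zfp706, or 5.26% of the 152 coding genes at dual-marked regions (95% exact Clopper-Pearson interval 2.30 to 10.1%, counting error only), where 2.99% of coding genes with H3K4me3 were zinc finger genes. The interval holds the background.
The part of the gene under H3K9me3 varied widely among them. H3K9me3 covered 90.8% of the Zfp68 locus, 87.4% of Zfp110, 82.8% of Zfp146 and 61.3% of Zfp263. It covered 39.6% of Zfp706 and 37.7% of Zfp53, but 0.878% of Zfp280d and none of Zfp623. The median over the 8 was 50.4%, against 6.53% over 157 pairs of a coding gene and a dual-marked region. The shared stretch was short: 72 bp at Zfp146 (chr7:30953222-30956046), 115 bp at Zfp110 (chr7:13419005-13421430) and 337 bp at Zfp68 (chr5:139059464-139061910). All 8 overlapped H3K4me3 in miR-93-5p cells, and Zfp146 and Zfp53 no longer overlapped H3K9me3 there.

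Of all genes with an H3K4me3 peak, 1.54% lay at a dual-marked region, so a short list has few members at that share. None of 54 histone genes and 60 ribosomal protein genes with H3K4me3 lay at one, and none of 3 germline genes did. Of 35 genes of the H3K9me3 pathway with H3K4me3, 1 did, Atf7ip, whose product stabilises Setdb1. Resf1, whose product also works with Setdb1, had an H3K9me3 peak of score 1504 and 24738 bp, the second highest score over the 194 regions, and was named by that rank.
The highest H3K4me3 scores were 3221 at Fam19a5 (a secreted protein of the nervous system), 3197 at Sp8, 3154 at Foxc1 and 3151 at Sim2, the last 3 being transcription factors. Among regions at the cap the widest was at Dusp4, a phosphatase that inactivates MAP kinases, with 11273 bp. Foxa2, a pioneer factor of liver and gut, had 8785 bp. The longest overlap, 3769 bp, was at Gata6, an endoderm factor, ahead of Zrsr1 and Peg3, and Barhl2, a homeobox gene, followed with 3103 bp. These all overlapped both marks in miR-93-5p cells.

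In miR-93-5p cells H3K9me3 again touched most dual-marked regions by at least 1 bp. It overlapped 152 of the 194 (78.4%, 95% exact Clopper-Pearson interval 71.9 to 83.9%, which covers counting error only). The share was 1.31% of peaks with H3K4me3 alone and 2.62% of all scr H3K4me3 peaks, and 72.3% of all scr H3K9me3 peaks overlapped H3K9me3 in miR-93-5p cells. The last value lies inside the interval of the dual-marked regions. H3K4me3 overlapped 163 (84.0%, interval 78.1 to 88.9%), below the 95.3% of H3K4me3 alone and the 94.9% of all scr H3K4me3 peaks. Both marks overlapped 124 (63.9%, interval 56.7 to 70.7%), against 2.23% of all H3K4me3 peaks. Where an overlap had to reach 0.5 of the shorter peak, the shares were 47.4% for H3K9me3 and 33.5% for both marks. H3K27me3 overlapped none of the 194, which allows a share of up to 1.88% by the exact interval, against 0.145% of peaks with H3K4me3 alone, which like these had no H3K27me3 in scr cells, 1.06% of all H3K4me3 peaks and 22.1% of those with H3K27me3 in scr cells.

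**Figure D2:**
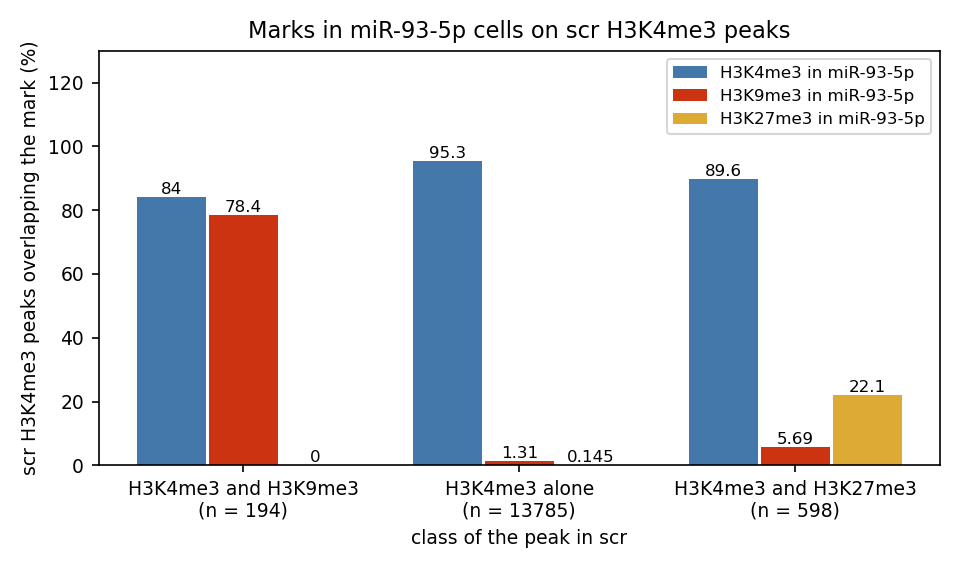
Percentage of scr H3K4me3 peaks that overlapped H3K4me3 (blue), H3K9me3 (red) and H3K27me3 (yellow) peaks of miR-93-5p cells, for 3 classes of scr peaks, with 1 library per mark and condition and no error bars. The dual-marked class stands at 84.0% for H3K4me3 and 78.4% for H3K9me3, and the class with H3K4me3 alone at 95.3% and 1.31%.

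The remaining regions split into 39 with H3K4me3 alone in miR-93-5p cells, 28 with H3K9me3 alone and 3 with neither. Those left with H3K4me3 had a median of 9.44% of the peak under H3K9me3 in scr cells and a median overlap of 258 bp. Of these 39, 34 overlapped H3K9me3 at an edge and 5 contained it. H3K9me3 covered under 10% of the peak in 20, 10 to 50% in 13, 50 to 90% in 4 and at least 90% in 2. Those left with H3K9me3 had a median H3K4me3 score of 103, in a range from 51.4 to 2233, and a median of 100% of the peak covered. Of the 28, 16 lay wholly within H3K9me3, 10 overlapped it at an edge and 2 contained it. In 26 of the 28 the nearest miR-93-5p H3K4me3 peak was over 5000 bp away.
The share with H3K4me3 in miR-93-5p cells fell along the covered part: 100% of 42 regions covered under 10%, 95.9% of 73 covered 10 to 50%, 83.0% of 47 covered 50 to 90% and 37.5% of 32 covered at least 90%. The share with H3K9me3 ran the other way, at 52.4%, 80.8%, 87.2% and 93.8%. The H3K4me3 score moved with the covered part, with medians of 3100, 3100, 1711 and 103, and their parts were not separated by this split. Of the 24 H3K4me3 peaks wholly within H3K9me3, 8 kept H3K4me3 and all 24 kept H3K9me3.

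**Figure D3:**
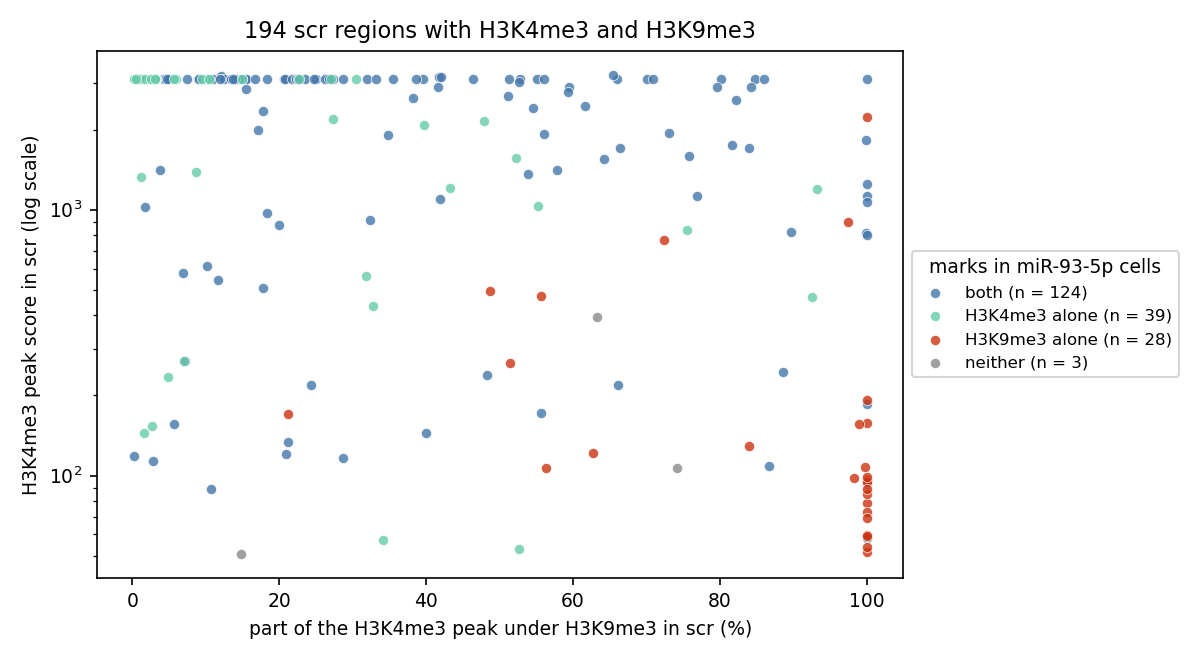
Each point is 1 of the 194 dual-marked regions, placed by the percentage of its H3K4me3 peak under H3K9me3 in scr cells and by its H3K4me3 score (log scale), and coloured by the marks it overlapped in miR-93-5p cells. The 28 regions with H3K9me3 alone (red) gather at full cover and low score, with medians of 100% and 103.

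Within bands of the scr H3K4me3 score, set after the data were seen, dual-marked regions were without H3K4me3 in miR-93-5p cells more often than peaks with H3K4me3 alone. At scores from 50 to 200 this was 24 of 41 (58.5%) against 24.4%, and at scores from 200 to 1000 it was 6 of 27 (22.2%) against 3.49%. The peaks with H3K27me3 in place of H3K9me3 stood at 32.6% and 10.3%. From 1000 to the cap the counts were 1 of 42 and 9 of 1228, and at the cap no peak of either class was without H3K4me3. Over all scr H3K4me3 peaks 5.1% had no H3K4me3 in miR-93-5p cells. The gap between the classes was thus in the lower bands.

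**Figure D4:**
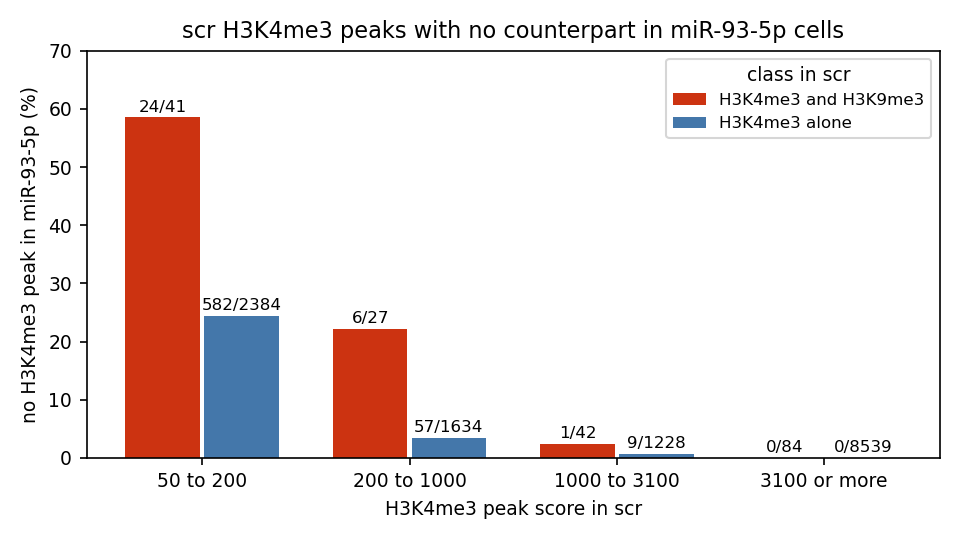
Percentage of scr H3K4me3 peaks with no H3K4me3 peak in miR-93-5p cells, by band of the scr score, for dual-marked regions (red) and peaks with H3K4me3 alone (blue), with the numbers of peaks above the bars. In the lowest band the shares are 58.5% and 24.4%, and at the cap both are 0.

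The same rule applied to the lists of the miR-93-5p cells gave 381 dual-marked regions, or 2.36% of their H3K4me3 peaks. Of these, 122 (32.0%) overlapped one of the 194 scr regions, 184 overlapped a scr peak with H3K4me3 alone, and 45 overlapped no scr H3K4me3 peak, 20 of them on scr H3K9me3. The longer set stood beside an H3K9me3 list that covered 39.2 Mb in place of 21.6 Mb.

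RNA was compared for coding genes whose locus was matched in all 3 libraries. Of the 152 coding genes at dual-marked regions, 112 (73.7%) matched an assembled locus in scr cells, against 86.9% of coding genes with H3K4me3 alone, 55.6% with H3K27me3 as well and 4.63% with H3K9me3 and no H3K4me3. No library had a match for 32, and 27 matched in 1 or 2 libraries. After genes with a mean under 1 FPKM were left out, 92 remained. Their median scr level was 10.5 FPKM (quartiles 5.87 and 26.1), between 16.1 FPKM for H3K4me3 alone and 7.27 FPKM for H3K4me3 with H3K27me3. Genes at dual-marked regions were thus matched to RNA in most cases, with a median below that of H3K4me3 alone.
Their median log2 ratio of miR-93-5p over scr (of FPKM plus 1) was 0.02, and 0.03 over all 8420 genes compared. The 92 hold only 3 of the 23 coding genes whose region had no H3K4me3 in miR-93-5p cells. The ratios and counts therefore leave out most of those genes. At least 2-fold higher were 7 of 92, where 2.97% of all genes were, and at least 2-fold lower were 8, where 3.86% were. Over the mutant, 3 were higher, where 1.85% of all genes were, and 2 lower, where 1.77% were. The mutant over scr gave 6 higher, where 2.64% of all genes were, and 8 lower, where 3.63% were; the comparisons share libraries. At least 2-fold higher than both scr and mutant were 2 of the 92, Lhfp and Adgrg6, where 0.665% of all genes were, and at least 2-fold lower than both were 0, where 0.879% were. Cufflinks assembled each library on its own, so a changed transcript model can move FPKM. The fragments implied by the width of the deposited FPKM bounds were therefore set beside it. They do not depend on transcript length, provided that the bounds reflect counting error alone. At Atf7ip the miR-93-5p and mutant libraries had 8.93 and 8.90 FPKM but 1501 and 33.4 implied fragments. This measure can thus move where FPKM does not, and what else widens the bounds was not tested. On that measure 6 of 89 were at least 2-fold higher than scr, where 7.55% of all genes were, and 14 lower, where 7.66% were.

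Nrn1, a membrane-anchored neurite growth factor, had 75.5 FPKM in scr cells, 240 FPKM under miR-93-5p and 233 FPKM under the mutant, a log2 ratio over scr of 1.66. Its implied fragments were 2955, 9265 and 3520, so miR-93-5p was over 2-fold above scr on both measures, while the mutant was high in FPKM alone. Ly6a, the surface protein Sca-1, had 137, 755 and 569 FPKM, the largest log2 ratio at 2.45, but 1536, 1969 and 1986 implied fragments, a scaled log2 ratio of 0.31. The 2-fold call for Ly6a thus rested on FPKM alone. Lhfp, a tetraspan membrane protein, had 4.23, 14.4 and 6.06 FPKM and 225, 788 and 467 implied fragments. Adgrg6, an adhesion receptor, had 2.18, 6.45 and 2.58 FPKM. In both the miR-93-5p library stood above scr and mutant, with log2 ratios over scr of 1.56 and 1.23. Barhl2 had 7.97, 19.4 and 22.0 FPKM, with mutant and miR-93-5p alike above scr. Dusp4 had 20.4, 51.0 and 37.5 FPKM, and a scaled log2 ratio of 0.43 in implied fragments, short of 2-fold.
Among the genes that were lower, Cdh1, the epithelial adhesion protein E-cadherin, stood out. Its level was 30.7 FPKM in scr cells, 1.52 FPKM under miR-93-5p and 3.87 FPKM under the mutant, a log2 ratio over scr of -3.65, with 1432, 179 and 492 implied fragments. Its H3K4me3 peak in scr cells, chr8:109127065-109128131, was weak (score 193) and lay entirely under a 2207 bp H3K9me3 peak. In miR-93-5p cells an H3K9me3 peak of 3168 bp covered it and the nearest H3K4me3 peak was 15106 bp away. Celsr1, a planar polarity cadherin whose 582 bp region was also left with H3K9me3 alone, had 6.89, 1.96 and 1.59 FPKM. Peg3 had 83.1, 25.2 and 16.9 FPKM (log2 ratio -1.68), although both marks stayed. Camk1d, a calcium-dependent kinase, had 6.57, 1.27 and 2.05 FPKM at its matched locus. The highest locus that overlapped Camk1d ran the other way, with 11.8, 1151 and 1535 FPKM. Whether that locus belongs to Camk1d was not tested. The liver factor Cebpa had 15.3, 5.17 and 3.00 FPKM, and Sim2 had 9.98, 3.63 and 4.92 FPKM. For the matched loci of these 6 the scr library was the highest of the 3. Their log2 ratio of implied fragments over scr was also at or below -1.06. In each, the mutant library was also below scr.
The other imprinted genes that could be compared moved less. Grb10 had 32.5, 23.4 and 34.2 FPKM in scr, miR-93-5p and mutant cells, Igf2r 12.9, 9.62 and 9.38, and Blcap 10.4, 14.4 and 11.9. Zrsr1, Gnas, Airn and Nespas had no compared value. The 7 zinc finger genes compared were under 2-fold from scr in FPKM, from Zfp706 with 99.2, 117 and 134 FPKM to Zfp623 with 6.01, 7.90 and 10.5. Zfp146 had 18.9, 24.9 and 24.6 FPKM, and Zfp68 had 16.6, 22.3 and 20.4. The Zfp706 value differed by measure, with a scaled log2 ratio of implied fragments of -1.79. Zfp280d had 7.60 FPKM in scr cells with bounds of 0 and 179, so its ratio is not informative. Zfp53 was not compared, since it had 22.9 FPKM in scr cells and no matched locus in the other libraries. A locus did overlap it there, with 25.045 FPKM in miR-93-5p cells and 37.1 FPKM in mutant cells. Whether these loci belong to Zfp53 was not tested.

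**Figure D5:**
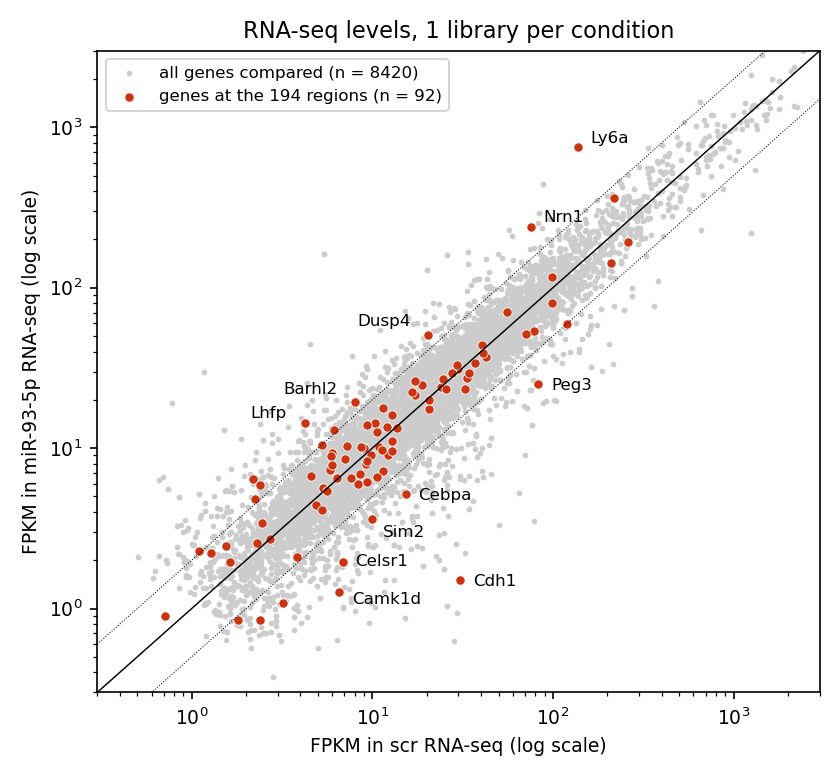
FPKM in the scr and the miR-93-5p RNA-seq library (log axes) for all 8420 genes compared (grey) and the 92 at dual-marked regions (red), with equality as a line and 2-fold as dotted lines. Most red points lie between the dotted lines, with Ly6a and Nrn1 above and Cdh1, Peg3 and Camk1d below.

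The genes whose dual-marked region had no H3K4me3 peak in miR-93-5p cells were seldom found in the RNA of those cells. Of 23 such coding genes 13 matched a locus in scr cells, with a median of 2.69 FPKM. Matches in miR-93-5p cells numbered 4 of the 23, and in mutant cells 4, while 6 had no locus in any library. Egr3 had no locus in scr cells, and 1.19 and 0.735 FPKM in miR-93-5p and mutant cells. An H3K4me3 peak of miR-93-5p cells lay only 610 bp from the Egr3 region. The shares that follow start from a match in scr cells, so they cannot show a gain. In miR-93-5p cells 10 of the 13 (76.9%) had no match and 9 (69.2%) had no assembled locus of any kind, against 2.02% of the 99 genes at dual-marked regions with H3K4me3 kept and 3.09% of all coding genes. In the range of 0.5 to 10 FPKM in scr cells the shares without a locus were 9 of 12 (75%), 3.92% and 7.70%. Genes of peaks with H3K4me3 alone that had no H3K4me3 in miR-93-5p cells were also often missing, 52.3% of 44. Within 0.5 to 10 FPKM the scr median was 2.20 FPKM for genes at dual-marked regions without H3K4me3 in miR-93-5p cells. It was 5.24 FPKM where H3K4me3 was kept and 4.93 FPKM for all coding genes. For genes with H3K4me3 alone in scr cells and none in miR-93-5p cells it was 2.47 FPKM. Both classes without the peak thus had low scr levels, and the part of level in the missing loci was not tested. A locus that was not assembled is not a measured level of 0.
The 9 genes were Cbr3, a carbonyl reductase, with 9.71 FPKM in scr cells, Tspan13, a tetraspanin, with 8.53, Mylip, a ubiquitin ligase of the LDL receptor, with 2.80, Trim71 with 2.69, Twist1 with 1.70, Sdc3 with 1.60, the growth factor Areg with 1.13, Insm1 with 0.893 and Klf2 with 0.864. They hold the CG-rich stretches of Tspan13 and Klf2 printed above. For Cbr3 the nearest H3K4me3 peak of miR-93-5p cells was 2668 bp from the region. Of these 9, 7 had no locus in mutant cells either, where Trim71 had 1.06 FPKM and Insm1 0.643 FPKM at their highest locus. Peaks of mutant cells were not analysed here. The region of Mylip, chr13:45484664-45486217, had the second highest H3K4me3 score of those without H3K4me3 in miR-93-5p cells, 903, and an H3K9me3 peak that was 1802 bp wide in scr and 3808 bp in miR-93-5p cells. Htra1, a secreted protease, had a score of 769 and no matched locus in miR-93-5p cells, although a locus of 4.14 FPKM overlapped it. Slc7a11, the cystine transporter, had a score of 496, and its RNA was at 0.714, 0.901 and 1.76 FPKM, while its implied fragments were 36.2 in scr and 24.8 in miR-93-5p cells, so the direction differed between the measures.

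In FPKM, most genes of the H3K9me3 machinery differed little between the libraries. Of 34 looked up, 32 matched a locus in at least 1 library and 30 were compared. Of the 30, 0 were at least 2-fold higher than scr in FPKM, where 2.97% of all genes were, and 1 was lower, where 3.86% were. The one was the remodeller gene Smarcad1 with 44.8, 15.2 and 35.5 FPKM, but with 784, 1033 and 972 implied fragments, so its call rested on FPKM alone. The median log2 ratio of the 30 over scr was -0.11, and 0.03 over all genes compared. The methylase gene Setdb1 had 17.3, 16.5 and 15.9 FPKM, and its partner Trim28 had 135, 107 and 141. Of the HP1 genes, Cbx1 had 64.2, 65.2 and 61.9 FPKM, Cbx3 37.7, 32.4 and 33.4, and Cbx5 53.2 FPKM in scr cells with no match in the others. Zfp57, which binds imprinted control regions, had 14.8, 13 and 14.1 FPKM.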

How the data were processed

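Peaks were called in each ChIP library separately. MACS, Bowtie, CASAVA 1.4 and mm9 were named without settings, per the submitters' processing notes, and the lists give a score per peak, per the files as deposited. Whether input was used as background is not given in the sources used here. The RNA files give FPKM with bounds per locus assembled by Cufflinks, per the file headers; the submitters' processing notes also name TopHat2 and Cuffdiff. Gene loci came from mm9 Ensembl genes whose FPKM is 0 in the pulldown files. Pulldown values and the 2 input samples were not analysed here.

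Overlaps of 1 bp were computed in Python 3.11.15 (pandas 2.3.3, numpy 2.4.6), the member count was repeated with bedtools 2.31.1, scipy 1.17.1 gave exact intervals, and matplotlib 3.10.9 the figures. The overlap code was tested on simulated data. A gene took the RNA locus with which it had a mutual best overlap of at least 0.5 of their joint length. Ratios are log2 of FPKM plus 1, over genes with a mean FPKM of at least 1, and called means 2-fold. Implied fragments are (2 × FPKM / (upper bound − FPKM)) squared, scaled to a median ratio of 1, with 10 added for ratios, and need 3 in each library. The summed implied fragments of the RNA-seq libraries were 14589703 (scr), 15301760 (miR-93-5p) and 19513878 (mutant).

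Named were all imprinted members, the 10 highest by H3K4me3 score (ties by width), by overlap and by H3K9me3 score, zinc finger genes by scr FPKM, the 6 largest rises and falls, and the 8 highest scores without H3K4me3 in miR-93-5p cells; the text gives a selection of these. Genes of missing loci were chosen after their values were seen. Members, lists and rules were chosen with earlier results of these data known. Alternatives changed the overlap, score minimum, pseudocount, filter, gene assignment and RNA measure.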

Additional observations from a re-analysis of the deposited data

How the results depend on the processing

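Of 51 values under 17 alternative settings, 35 stayed within the limits set for a stable value and 16 moved. A change of sign was not scored on its own. The median log2 ratio over scr was 0.02 in the main setting and -0.03 with implied fragments, which counted as stable. Requiring an overlap of at least 0.5 of the shorter peak left 108 regions, and an H3K9me3 score of at least 100 left 101. Of the latter, 91.1% overlapped H3K9me3 and 72.3% both marks in miR-93-5p cells. Counting overlaps in miR-93-5p cells from 200 bp gave 71.6% for H3K9me3. Counting them from 0.5 of the shorter peak gave 47.4% for H3K9me3 and 33.5% for both. With miR-93-5p peaks of a score of at least 100 these shares were 64.9% and 51.0%. Among the 153 regions with an H3K4me3 score of at least 200, a setting chosen after seeing the data, 95.4% overlapped H3K4me3 and 72.5% both. With a pseudocount of 5, 4 genes were 2-fold higher and 3 lower. A mean FPKM of at least 5 left 5 lower, a joint length of at least 0.9 left 4 higher, and implied fragments gave 14 lower of 89 genes, where 7.66% of all genes were. The cause of these moves was not tested, beyond the smaller number of genes or regions that a stricter setting keeps. No paired analysis was possible because each assay and condition had 1 library.

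ChIP depth is unknown, peak scores are capped, and a peak that was not called is not a measured absence. Weak peaks, 21.1% of the regions with a score under 200, are where a call is most easily gained or missed. How reads in repeats and near-identical copies, such as zinc finger clusters, were mapped is not given in the sources used here, so values at these places are uncertain. Without strand, Igf2r was not separated from Airn, nor Gnas from Nespas.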
